A study of Mus musculus with 42 samples.

Results

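The comparison described here sets TA (tibialis anterior) muscle of immobilized Sesn2SkM-Tg mice, 4 libraries, against that of immobilized WT (wild-type) mice, 3 libraries. These are 7 of the 42 RNAseq libraries of the series, chosen by genotype, treatment and sequencing set as the sample labels give them, and 13705 of the 13809 genes in the deposited table were tested. By the labels all animals were C57BL/6J mice 4 months old. By the methods of the study they were male, and 1 hindlimb had been fixed with rigid sticks for 3 days. The libraries belong to the first of the study's sets (set 1), which also holds 4 basal WT, 4 basal Sesn2SkM-Tg, 4 basal Sesn1SkM-Tg and 3 immobilized Sesn1SkM-Tg libraries, while WT muscles of the second set (set 2) share no library with it. Sesn2SkM-Tg mice carry Sesn2 behind a Tet-regulated promoter together with the transactivator tTA under the muscle creatine kinase (MCK) promoter. By the methods of the study their controls were littermates without a transgene, so effects of tTA and of Sesn2 cannot be told apart. The sample titles give the WT libraries of set 1 as WT only, without naming the line whose littermates they were. The labels do not say that each library comes from a separate animal, so p-values measure the spread between libraries. For comparisons within set 1 this spread was estimated over all 22 libraries of the set. The same immobilized WT libraries serve as controls for Sesn1SkM-Tg muscle.

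Sestrins are stress-inducible proteins. Sesn2 binds leucine and, when leucine is scarce, restrains the kinase complex mTORC1 through the GATOR complexes, and sestrins also act on AKT and AMPK signaling. In an unused muscle, FoxO transcription factors raise ubiquitin ligases that feed the proteasome, protein synthesis falls, and myofibers shrink, while macrophages and matrix-producing fibroblasts respond to the altered load. The labels were checked on defining genes of the tissue: the fast myosin Myh4 lay at 19829 to 32063 normalized counts in the immobilized WT libraries and 17318 to 24520 in the immobilized Sesn2SkM-Tg libraries.

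Values are given as normalized counts (linear, from the deposited table), and the number of reads behind them is unknown, so no counting error can be given. They summed to 830698 to 880365 in the immobilized WT libraries and 832931 to 960596 in the immobilized Sesn2SkM-Tg libraries. On the first principal component of the 7 libraries (36.4% of the variance) all WT libraries lay on one side and all Sesn2SkM-Tg libraries on the other. The second (25.1%) placed Sesn2SkM-Tg replicate 2 at one end and WT replicate 1 at the other, and among WT libraries replicate 3 lay farthest out on the first. Replicate libraries correlated at 0.974 to 0.982 on average within their group.

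Immobilized Sesn2SkM-Tg muscle differed from immobilized WT muscle in 403 of 13705 genes (2.94%), 226 higher (1.65%) and 177 lower (1.29%). A gene was called at a Benjamini-Hochberg adjusted p under 0.05 from limma and an absolute log2 difference of at least 0.25, both on log2(normalized count + 1), a scale that understates the change of low genes. The groups did not overlap for 2565 genes (18.7% of those tested), 1577 with Sesn2SkM-Tg above WT (11.5%) and 988 below (7.21%). Most of these did not pass the adjusted threshold, and the design of 3 against 4 libraries limits what can be called. Over all genes tested the median log2 difference was 0.011. The excess of higher over lower genes depended on the scaling and the threshold, with 153 higher and 172 lower after libraries were centred on their medians, and 61 and 81 at an absolute log2 difference of at least 1. The count rested on single libraries: it was 110 without WT replicate 3 (55 in each direction), 118 without WT replicate 1, 190, 220 and 233 without Sesn2SkM-Tg replicates 3, 1 and 2, 224 without WT replicate 2, and 314 without Sesn2SkM-Tg replicate 4. In all 7 of these fits 53 genes were called, 33 higher and 20 lower, and those with the largest differences are described first. Among 74 called genes singled out for description by the rule given in the methods, 41 lost their call without WT replicate 1 and 38 without WT replicate 3, so the number of these 7 fits that kept the call is given for genes of the gene lists.

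**Figure D1:**
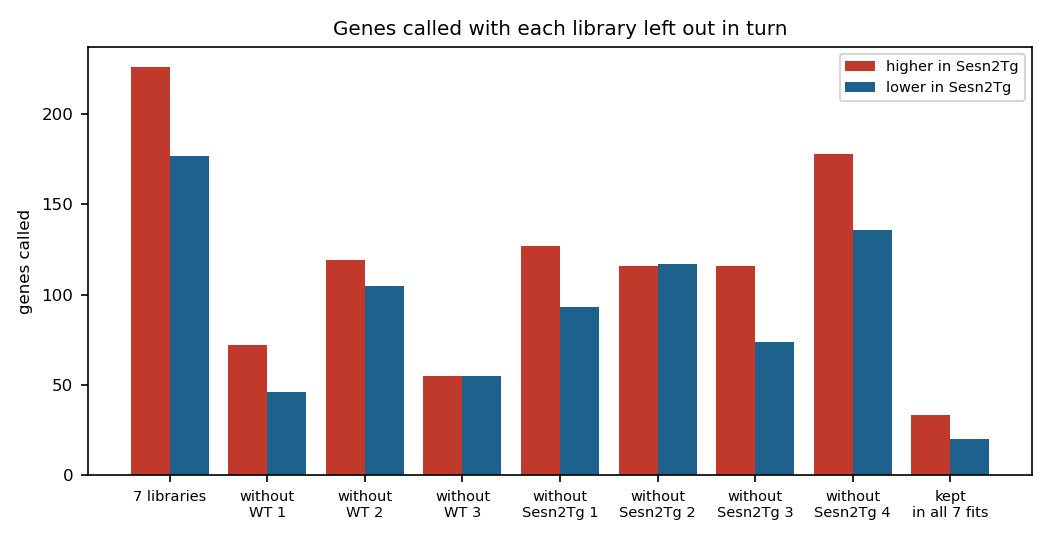
Bars give the number of genes called (vertical axis) as higher (red) or lower (blue) in immobilized Sesn2SkM-Tg than WT muscle with all 7 libraries, with each library left out in turn, and in all of those fits. The counts fall from 226 and 177 with 7 libraries to 33 and 20 genes called throughout.

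Sesn2 itself (ENSMUSG00000028893, chromosome 4, 132492032 to 132510501, GRCm38) had 2.76, 1.86 and 2.96 normalized counts in the immobilized WT libraries and 13.6, 14.5, 11.8 and 8.01 in the immobilized Sesn2SkM-Tg libraries. Every transgenic library lay above every WT library (log2 difference 1.86, standard error 0.22, adjusted p = 0.000201 from limma). Basal muscle had 2.46, 2.5, 3.39 and 2.18 in WT and 6.54, 10.9, 12.6 and 13 in Sesn2SkM-Tg libraries, so the difference was of similar size there (1.66). The values are per gene, from reads quantified against the mouse transcriptome. They do not separate transcripts of the transgene, which the study describes as human Sesn2, from those of the mouse gene. Immobilization raised Sesn2 in WT muscle of set 2 (0.87 on the log2 scale), against a difference of -0.05 in WT muscle of set 1. Sesn1 (0.13, adjusted p = 0.819) and Sesn3 (-0.40, adjusted p = 0.474), the other sestrins, were not called.

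Irs2 rose in all fits. This adaptor that links the insulin receptor to PI3K had 6.12, 2.87 and 1.43 normalized counts in WT and 12.3, 13.4, 9.6 and 11.5 in Sesn2SkM-Tg libraries, with no overlap (log2 difference 1.64, standard error 0.28, adjusted p = 0.00405). It was low in absolute terms. Irs2 did not differ detectably in basal muscle (-0.15, adjusted p = 0.846), where WT libraries had 10.9 to 15.5, and the immobilized WT libraries were the low ones among the 4 groups. In WT muscle of set 2 immobilization changed Irs2 by 0.35 on the log2 scale, against -1.84 in WT muscle of set 1.

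Egln3 (ENSMUSG00000035105, chromosome 12, 54178981 to 54203860), a prolyl hydroxylase that marks HIF proteins for degradation, had 27.4, 23.7 and 15.8 normalized counts in WT and 65.9, 101, 133 and 57.5 in Sesn2SkM-Tg libraries (log2 difference 1.91, standard error 0.32, adjusted p = 0.0035). Nos1, the neuronal nitric oxide synthase of the sarcolemma, had 115, 64.7 and 68.7 in WT against 217, 181, 214 and 206 in Sesn2SkM-Tg libraries, the order kept for all genes here (log2 difference 1.34, standard error 0.23, adjusted p = 0.00433). Igfbp3, a carrier of insulin-like growth factors, had 9.45, 8.78 and 4.99 against 23.9, 30.1, 24.1 and 18.1 (log2 difference 1.54, standard error 0.24, adjusted p = 0.00217). For none of these genes did the groups overlap. Ifrd1, a transcriptional coregulator of muscle regeneration (1.44, adjusted p = 0.0126), Prkcz, an atypical protein kinase C (1.46, adjusted p = 0.000713), and Pla2g4e, a cytosolic phospholipase A2 (1.38, adjusted p = 0.000254), also rose, as did Fam57b (1.3, adjusted p = 0.0111) and the poorly described transcripts 2410006H16Rik (1.33) and AA465934 (1.32). AA465934 stayed at or under 2.82 in every library, where precision is low.

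Among the genes that fell in all fits, Fbxl22 (ENSMUSG00000050503, chromosome 9, 66508459 to 66514593), an F-box protein of the sarcomere, had 26.1, 29.1 and 38.3 normalized counts in WT and 5.59, 8.2, 3.26 and 9.24 in Sesn2SkM-Tg libraries (log2 difference -2.15, standard error 0.37, adjusted p = 0.00433). In basal muscle it lay at 1.81 to 2.44 in WT and 2.39 to 4.23 in Sesn2SkM-Tg libraries, and immobilization raised it in WT muscle of set 2 by 2.24 on the log2 scale. Both basal groups thus lay below every immobilized WT library. Clu (ENSMUSG00000022037, chromosome 14, 65968483 to 65981547), a secreted chaperone, had 86.9, 124 and 141 against 30.1, 29.1, 21.3 and 34.4 (log2 difference -1.98, standard error 0.26, adjusted p = 0.000254). Igfbp5 (ENSMUSG00000026185, chromosome 1, 72857932 to 72874884), the binding protein of insulin-like growth factors that is abundant in muscle, had 1057, 788 and 662 against 290.3, 149, 189 and 321 (log2 difference -1.85, standard error 0.30, adjusted p = 0.00308). For each of these genes the lowest WT library lay above the highest Sesn2SkM-Tg library, by 662 against 321 for Igfbp5.

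Prkag3 and Gatsl2, genes of energy and nutrient sensing, fell as well. Prkag3, the AMPK subunit of fast muscle, had 91.6, 86 and 65.7 normalized counts in WT and 31.5, 16.8, 29.9 and 24.7 in Sesn2SkM-Tg libraries (log2 difference -1.64, standard error 0.25, adjusted p = 0.00141). Gatsl2, also called Castor2 and a relative of the arginine sensor of mTORC1, had 170.03, 129 and 114 against 56, 50.1, 49.1 and 54 (log2 difference -1.36, standard error 0.18, adjusted p = 0.000254). Pdp1, a phosphatase that activates pyruvate dehydrogenase (-1.4, adjusted p = 0.00636), the small GTPase gene Rasd2 (-1.64, adjusted p = 0.00552), the iron exporter Slc40a1 (-1.29, adjusted p = 0.000836) and Ctxn3 (-1.75, adjusted p = 0.000242) were lower too. These 6 genes were also lower in basal Sesn2SkM-Tg muscle, where Gatsl2 had 134, 136, 117 and 155 in WT and 72.9, 48.5, 68.9 and 72.3 in transgenic libraries. Prss23, a serine protease (-1.31, adjusted p = 0.00172), and the uncharacterized 4930512H18Rik (-2.13, adjusted p = 0.00308) were lower in immobilized muscle without a call in basal muscle, and for neither did the difference between the states pass the test (adjusted p = 0.215 and 0.65). H3f3c (-1.36, adjusted p = 0.00577) is close to other H3 histone genes, with which it may share reads.

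**Figure D2:**
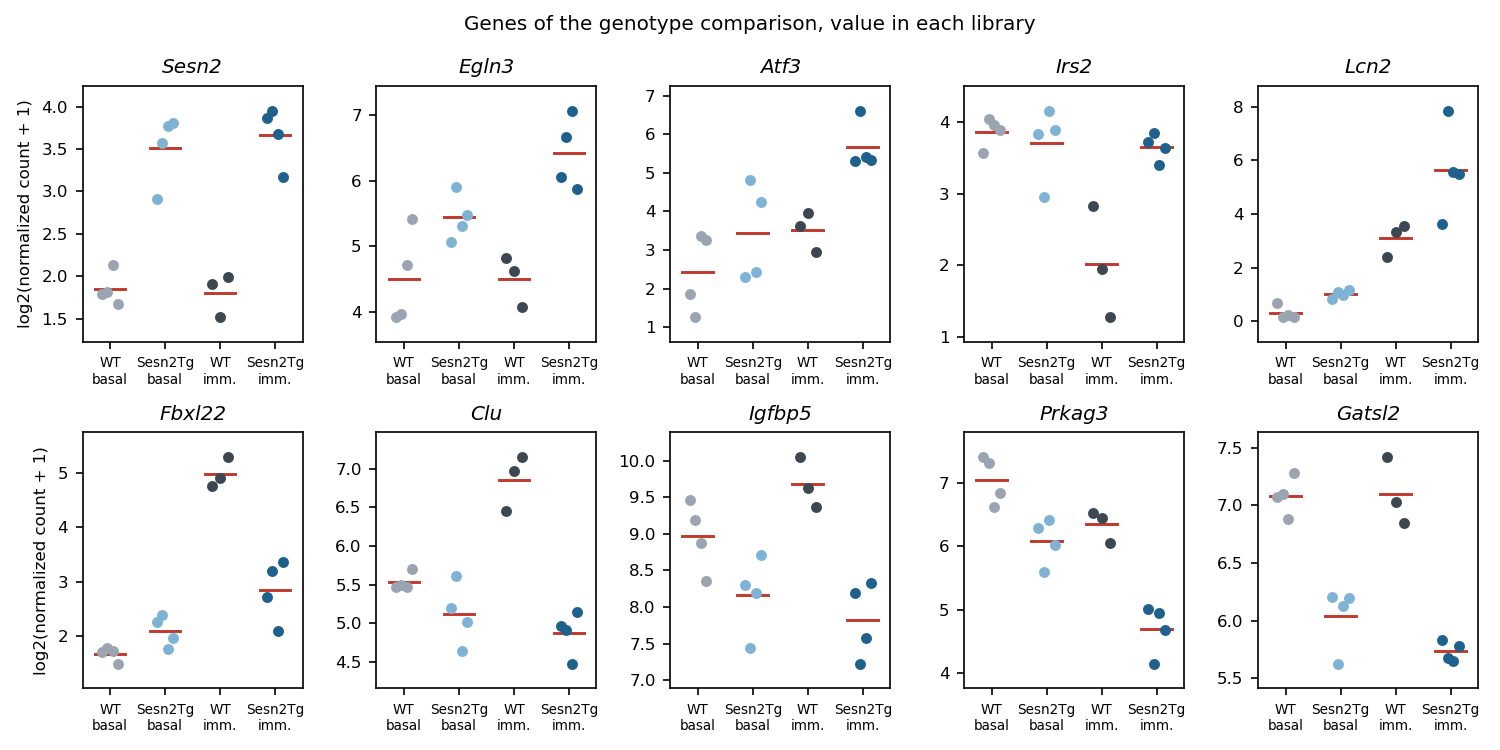
Each panel plots log2(normalized count + 1) of 1 gene (vertical axis) in every basal and immobilized (imm.) WT and Sesn2SkM-Tg library of set 1, labelled Sesn2Tg. Points are libraries and red lines group means. Fbxl22 and Clu separate the genotypes after immobilization, Prkag3, Gatsl2 and Sesn2 separate them in either state, and for Irs2 the immobilized WT libraries are the low group.

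Some markers of macrophages and of matrix-producing cells were lower in immobilized Sesn2SkM-Tg than in immobilized WT muscle. Of 15 macrophage markers 4 fell and 0 rose (1.29% of all genes were called lower): Emr1, which encodes F4/80 (-1.49, adjusted p = 0.0227), the complement gene C1qb (-1.35, adjusted p = 0.0328), Csf1r, the receptor for macrophage colony-stimulating factor (-1.18, adjusted p = 0.0474), and the chemokine receptor Cx3cr1 (-0.98, adjusted p = 0.0449). Emr1 had 8.27, 6.64 and 13 normalized counts in WT and 4.05, 3.65, 1.29 and 1.95 in Sesn2SkM-Tg libraries. C1qb had 29.9, 22.2 and 42.1 against 12, 15.7, 5.15 and 16.2. Neither gene overlapped between the groups, and WT replicate 3 was the highest library for both. The groups did not overlap for 8 of the 15 markers, all lower in Sesn2SkM-Tg muscle (7.21% of all genes were), and the median difference of the list was -1.12, against 0.011 for all genes tested. Cd68 had the only estimate above 0 (0.80, adjusted p = 0.281), and C1qa was not called (-1.21, adjusted p = 0.058).

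The summed level of the macrophage markers was 284 to 561 normalized counts in the immobilized WT libraries, 117 to 326 in the immobilized Sesn2SkM-Tg libraries, and 71.3 to 95.4 and 102 to 106 in the basal groups. The sums of the immobilized groups overlapped, with the highest Sesn2SkM-Tg library at 326 and the lowest WT library at 284. In the mean log2 level of the markers, Sesn2SkM-Tg replicate 2 (3.691) lay above WT replicate 2 (3.639) and below WT replicate 1 (3.877). No gene of the table is at 0 in any library, its lowest value being 0.00476, so absence of a marker cannot be read from it. In basal muscle the median difference was 0.127 and no marker was called. In bulk muscle fewer cells of a type cannot be told apart from less RNA per cell. With 1 library left out between 0 and 4 markers were called lower and the median difference lay between -1.34 and -0.83. The calls held, of the 7 fits, for Emr1 and C1qb in 3 and Csf1r and Cx3cr1 in 1.

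None of 7 leukocyte and antigen presentation markers was called, with a median difference of -1.13 (Ptprc -1.06, adjusted p = 0.16, and Cd74 -1.13, adjusted p = 0.0909), and the same held for 11 markers of proliferating cells (median -1.01, with Mki67 at -1.64, adjusted p = 0.0627, and Top2a at -1.36, adjusted p = 0.143). Among 12 fibroblast markers, Lum, a collagen-binding proteoglycan, fell (-1.02, adjusted p = 0.0441), Pdgfra (-0.67, adjusted p = 0.262) and Dcn (-0.48, adjusted p = 0.261) were not called, and the list had a median of -0.687. Summed levels of the fibroblast markers were 1410 to 1947 in WT and 795 to 1182 in Sesn2SkM-Tg libraries, without overlap. Of 38 collagen and matrix genes 3 fell and 0 rose (median -0.616, with 1.29% of all genes called lower), namely the fibril-associated collagen Col14a1 (-1.27, adjusted p = 0.0135), fibronectin, Fn1 (-1.17, adjusted p = 0.0279), and Col6a1 (-0.70, adjusted p = 0.0429). Fn1 had 63, 61.4 and 117 normalized counts in WT and 29.5, 41.6, 24 and 42.3 in Sesn2SkM-Tg libraries. Col14a1 had 7.28, 10.9 and 9.03 against 2.94, 3.22, 3.18 and 3.22. The fibrillar collagens Col1a1 (-1.49, adjusted p = 0.172) and Col1a2 (-1.27, adjusted p = 0.0926) were not called. Of the 7 fits with 1 library left out, the call held for Col14a1 in 5, Fn1 in 3, Col6a1 in 1 and Lum in 0. Summed levels of the matrix list were 1771 to 3417 in WT and 1309 to 2367 in Sesn2SkM-Tg muscle after immobilization, and the part of macrophage and fibroblast content in these differences was not tested.

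All 12 endothelial markers lay above WT in the estimate (median 0.385, range 0.14 to 0.51), the groups did not overlap for 5 of them (11.5% of all genes lay wholly above WT) and none was called, as with Pecam1 (0.23, adjusted p = 0.433) and Cdh5 (0.49, adjusted p = 0.07). No gene was called among markers of neutrophils (8 tested, median -0.0973), adipocytes (10, -0.273), Schwann cells and nerve (10, 0.163), satellite cells and myoblasts (8, 0.269), smooth muscle and pericytes (8, 0.282), tendon (7, -0.0817) or erythroid cells (6, 0.395). The medians of the neutrophil, adipocyte and tendon markers changed sign when single libraries were left out.

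**Figure D3:**
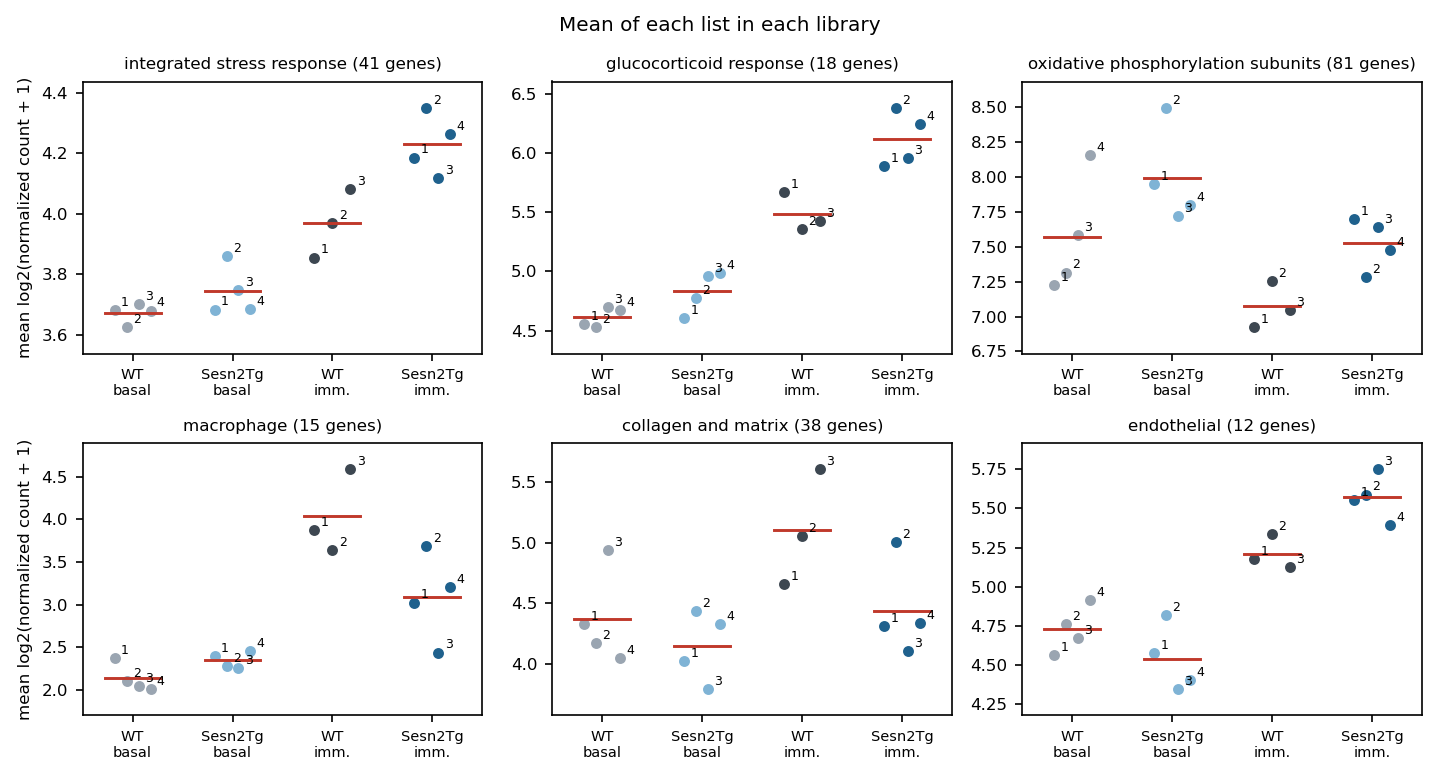
Each panel plots the mean log2(normalized count + 1) over the genes of a list (vertical axis) in every library, numbered by replicate, for the basal and immobilized (imm.) WT and Sesn2SkM-Tg groups of set 1, with red lines for group means. Immobilized Sesn2SkM-Tg libraries lie above immobilized WT libraries for the integrated stress response, glucocorticoid response, oxidative phosphorylation and endothelial lists, while for macrophage and matrix genes they lie mostly below, with an overlap at Sesn2SkM-Tg replicate 2.

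Several genes of the integrated stress response rose in immobilized Sesn2SkM-Tg muscle. In this response phosphorylated eIF2α favors translation of the transcription factor ATF4, which induces genes of amino acid supply, tRNA charging and stress adaptation, Sesn2 among them. Of 41 members tested 7 rose and 0 fell (median 0.224, against -0.0204 in basal muscle), and of all genes 1.65% were called higher and 1.29% lower. Estimates lay above 0 for 25 of the 41 members, against 7061 of the 13705 genes tested. The groups did not overlap for 15 members, 13 with Sesn2SkM-Tg higher and 2 lower, against 11.5% and 7.21% of all genes. In basal muscle 4 members were called higher and 1 lower (1.5% and 1.0% of all genes), with Cebpb and Sesn2 called higher in both states. Atf4 had 188, 186 and 184 normalized counts in WT and 257, 396, 251 and 326 in Sesn2SkM-Tg libraries (log2 difference 0.70, standard error 0.16, adjusted p = 0.0201). Atf3, a stress-induced repressor, had 11.2, 14.6 and 6.73 against 38.3, 96.7, 41.6 and 39.2 (log2 difference 2.15, standard error 0.59, adjusted p = 0.0484). Ppp1r15a, which encodes the eIF2α phosphatase subunit GADD34, had 49.7, 51.5 and 49.7 against 90.6, 218, 69.6 and 141 (log2 difference 1.22, standard error 0.33, adjusted p = 0.0489). In all of them the groups did not overlap and Sesn2SkM-Tg replicate 2 was the highest library. The other called members were Cebpb (1.04, adjusted p = 0.0309), the tRNA synthetase genes Cars (0.55, adjusted p = 0.0202) and Mars (0.52, adjusted p = 0.0163), and Sesn2. For Sesn2 the parts of the transgene and of the mouse gene cannot be told apart. Ddit3, which encodes CHOP (0.73, adjusted p = 0.109), and Trib3, a pseudokinase it induces (0.42, adjusted p = 0.321), were not called. With 1 library left out 1 to 4 members were called and the median was 0.152 to 0.26. The call held, of these 7 fits, for Mars in 6, Cars in 4, Atf4 in 3, Ppp1r15a in 1 and Cebpb and Atf3 in 0. The difference of Atf3 was 1.83 without Sesn2SkM-Tg replicate 2 (adjusted p = 0.107) and 1.87 without WT replicate 3 (adjusted p = 0.213).

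Of 20 cytosolic aminoacyl-tRNA synthetases, which load tRNAs with amino acids, 4 rose and 0 fell (median 0.213, with 1.65% of all genes called higher). Cars and Mars among these 4 were already counted in the stress response list. Mars had 60.4, 60.4 and 55.7 normalized counts in WT and 85.3, 89.6, 84.1 and 81.1 in Sesn2SkM-Tg libraries (log2 difference 0.52, standard error 0.11, adjusted p = 0.0163). Aars had 116, 134 and 133 against 172, 214, 172 and 201 (log2 difference 0.57, standard error 0.13, adjusted p = 0.0218). Cars (0.55, adjusted p = 0.0202) and Vars (0.46, adjusted p = 0.0451) completed the group, and Eprs lay lower without a call (-0.48, adjusted p = 0.233). In the 4 called genes each WT library lay below each Sesn2SkM-Tg library, and the call held, of the 7 fits with 1 library left out, for Mars in 6, Aars and Cars in 4 and Vars in 0.

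To show sequence that ATF family factors are known to recognize, the 250 bases before the start of each gene in the RefSeq promoter table (GRCm38.p6, 9892 tested genes matched) were searched on both strands for 2 motifs, neither of which contains the other, TGATGCAA, the core of the C/EBP-ATF element, and TGACGTCA, the cAMP response element. The first occurred in 0.495% of all matched genes and in 7 of 43 members of the stress response and synthetase lists (16.3%), and the second in 2.75% and in 1 of 43 (2.33%). Both lists name genes of the kinds that ATF4 induces, so their share describes the lists and not the genotype difference. Among all matched genes called higher, the first occurred in 2 of 165 (1.21%) and the second in 3 of 165 (1.82%). Atf3 held the first and Ppp1r15a the second, and their windows are shown because both are members that were called. The windows below give 10 bases on each side where these lie before the start, 5′ to 3′ on the strand of the gene, with the motif or its reverse complement in capitals.
Atf3 (chr1:191183426-191183453, minus strand): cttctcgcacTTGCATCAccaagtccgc
Ppp1r15a (chr7:45526269-45526290, minus strand): gcctctccggTGACGTCAgcac
The motif ends 102 and 4 bases before the start of Atf3 and Ppp1r15a. A match describes letters in the promoter and not binding in these muscles.

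Of 18 targets of the glucocorticoid receptor 4 rose and 0 fell, with a median difference of 0.669, against 0.244 in basal muscle. There 3 were called higher and 1 lower (1.5% and 1.0% of all genes). Of all genes 1.65% were called higher after immobilization. Per1, a clock gene that glucocorticoids induce directly, had 19.9, 23.2 and 21 normalized counts in WT and 56.4, 54.5, 54.1 and 64.8 in Sesn2SkM-Tg libraries (log2 difference 1.39, standard error 0.36, adjusted p = 0.0413). Cebpd had 8.81, 7.06 and 8.85 against 22.5, 19, 20.4 and 24.9 (log2 difference 1.3, standard error 0.27, adjusted p = 0.0153). Fkbp5, a chaperone that dampens the receptor, had 28.7, 25.5 and 25.3 against 60.2, 110.1, 54 and 50.01 (log2 difference 1.27, standard error 0.28, adjusted p = 0.0201). The groups did not overlap for any of these genes (11.5% of all genes lay wholly above WT), and Sesn2SkM-Tg replicate 2 stood out only for Fkbp5. Lcn2 (ENSMUSG00000026822, chromosome 2, 32384633 to 32388252), an iron-binding acute-phase protein, had 4.23, 9.01 and 10.7 against 11.4, 228, 46.6 and 44.4 (log2 difference 2.55, standard error 0.56, adjusted p = 0.0181). Its groups were separated only by 10.7 against 11.4, and the difference was 1.82 without Sesn2SkM-Tg replicate 2, the highest library (adjusted p = 0.0279), and not called without WT replicate 1 (adjusted p = 0.084). Tsc22d3 (0.03, adjusted p = 0.966) and Klf15 (0.55, adjusted p = 0.254) were not called. Per1 was also higher in basal Sesn2SkM-Tg muscle (1.29, adjusted p = 0.0402), while after immobilization the call held, of the 7 fits with 1 library left out, for Cebpd and Lcn2 in 6, Fkbp5 in 3 and Per1 in 0.

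Of 30 immediate early and AP-1 genes 3 rose and 0 fell (median 0.457, with 1.65% of all genes called higher): the small Maf gene Maff (1.12, adjusted p = 0.00577), which was called in all fits, Jund (0.88, adjusted p = 0.0451) and Atf3. Fos (-0.86, adjusted p = 0.521) and Jun (0.49, adjusted p = 0.323) were not called. Among 28 acute phase and IL6-STAT3 genes only Lcn2 and Cebpd were called, while Serpina3n (-0.82, adjusted p = 0.374) and Saa1 (0.04, adjusted p = 0.955) were not (median 0.0888, which changed sign under 4 of the other settings). Of 26 p53 targets (median 0.0335, with Cdkn1a at 0.87, adjusted p = 0.208), Phlda3, which inhibits AKT at the membrane, rose beside Sesn2 (log2 difference 0.79, standard error 0.15, adjusted p = 0.00984), from 211 to 248 normalized counts in WT to 352 to 413 in Sesn2SkM-Tg libraries. Of 19 circadian clock genes Per1 and Ciart (1.12, adjusted p = 0.0157) rose, and Bmal1 (Arntl, 0.03, adjusted p = 0.973) and Clock (-0.17, adjusted p = 0.83) were not called (median 0.196). The call held, of the 7 fits with 1 library left out, for Maff and Phlda3 in 7, Ciart in 5 and Jund in 0.

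The insulin and insulin-like growth factor axis held calls in both directions, 2 of 25 higher and 2 lower (median 0.111). Of all genes 1.65% were called higher and 1.29% lower. Beside Irs2, Akt1 rose from 99, 98.2 and 118 normalized counts in WT to 171, 195, 154 and 205 in Sesn2SkM-Tg libraries (log2 difference 0.78, standard error 0.18, adjusted p = 0.0222). Beside Igfbp5, Igf1, which macrophages and interstitial cells of muscle also make, had 18.2, 15.9 and 24.7 against 6.85, 12.5, 5.61 and 7.92 (log2 difference -1.19, standard error 0.32, adjusted p = 0.0451), and it moved with the macrophage markers given above, whose part was not tested. The call of Akt1 held in 3 and that of Igf1 in 1 of the 7 fits with 1 library left out. Igf1r (-0.35, adjusted p = 0.567) and the FoxO gene Foxo1 (0.69, adjusted p = 0.0705) were not called. Of 45 genes of sestrins, GATOR and mTORC1, only Sesn2 rose and only Prkag3 fell (median 0.071). These calls were 4.44% of the list, against 2.94% of all genes. The GATOR and mTORC1 genes of the list were not called. The list does not hold Gatsl2, the relative of the arginine sensor of mTORC1 described above, which was lower (-1.36) and called in all 7 fits. Ddit4, an mTORC1 inhibitor also named Redd1, was higher in every Sesn2SkM-Tg library without passing the adjusted threshold (1.26, adjusted p = 0.06).

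Of 25 ubiquitin ligases known from muscle atrophy Fbxl22 alone was called, as lower (median 0.131, with 1.29% of all genes called lower). Fbxo32, which encodes Atrogin1, had 1357, 782 and 799 normalized counts in WT and 1075, 1153, 1221 and 1499 in Sesn2SkM-Tg libraries (log2 difference 0.37, adjusted p = 0.613). The 95% interval of this difference ran from -0.37 to 1.12. Trim63, which encodes MuRF1, had 1249, 537 and 534 against 947, 1040, 768 and 1573 (0.56, adjusted p = 0.32, interval -0.06 to 1.17). For both genes the WT values spread widely, with replicate 1 the highest, and the transgenic values lay within or above the WT range. Of 46 proteasome subunits 40 had estimates above 0 (median 0.195), the groups did not overlap for 16, all higher in Sesn2SkM-Tg muscle (11.5% of all genes were), and Psmd3 passed the test (0.58, adjusted p = 0.0384, held in 2 of the 7 fits with 1 library left out). The share called was 2.17% of the subunits, against 2.94% of all genes. The median of the subunits was 0.101 with quantile normalization, where 33 lay above 0 and none was called, and 0.108 without WT replicate 1. Adrm1, a ubiquitin receptor of the proteasome, rose in all fits (0.68, adjusted p = 0.00791). None of 50 autophagy genes was called (median 0.0691), Map1lc3b (-0.11, adjusted p = 0.713) and Sqstm1 (0.36, adjusted p = 0.31) among them.

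All 81 subunits of oxidative phosphorylation had estimates above WT in immobilized Sesn2SkM-Tg muscle, of which 2 passed the test (2.47%, against 2.94% of all genes). Their median was 0.434 (range 0.07 to 1.03), and the groups did not overlap for 37, against 11.5% of all genes lying wholly above WT. Cox8b, the muscle form of a cytochrome c oxidase subunit, had 133, 199.9 and 156 normalized counts in WT and 379.8, 261, 364 and 323 in Sesn2SkM-Tg libraries (log2 difference 1.03, standard error 0.22, adjusted p = 0.0166). Uqcr10, of complex III, had 115, 157 and 131 against 235, 203, 243 and 218 (log2 difference 0.74, standard error 0.20, adjusted p = 0.0473). In basal muscle, which shares no library with the immobilized comparison, the median difference of these subunits was 0.426 and 4 were called higher. Their median fell by 0.404 on immobilization of WT muscle in set 2. The median was 0.36 with quantile normalization and 0.364 to 0.521 with 1 library left out, where the call of Cox8b held in 5 of the 7 fits and that of Uqcr10 in 0.

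Ribosomal protein genes were mostly above WT too. Of 83 cytosolic members 76 had a positive difference (median 0.246) and the groups did not overlap for 36, against 11.5% of all genes lying wholly above WT, with Rps20 called (0.66, adjusted p = 0.0473). Of 74 mitochondrial members 72 were positive (median 0.239), the groups did not overlap for 24 with Sesn2SkM-Tg higher, and Mrps2 was called (0.56, adjusted p = 0.0495). The shares called were 1.2% of the cytosolic and 1.35% of the mitochondrial members, against 2.94% of all genes. The median of the cytosolic members was 0.147 with quantile normalization and 0.136 without WT replicate 1. The basal medians were 0.315 and 0.248, and both single calls were lost in each of the 7 fits with 1 library left out. Several of these genes have pseudogenes that can share their reads.

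In energy metabolism, 2 of 36 glycolysis and glycogen genes rose and 2 fell (median 0.24). Of all genes tested, 1.65% were called higher and 1.29% lower. Fbp2, muscle fructose bisphosphatase, had 18.2, 20.3 and 23.1 normalized counts in WT and 39.4, 40.2, 45.3 and 50.5 in Sesn2SkM-Tg libraries (log2 difference 1.06, standard error 0.23, adjusted p = 0.0196), and Gpi1 rose too (0.72, adjusted p = 0.0166). Pfkfb3, which makes the activator of phosphofructokinase, had 131, 67.6 and 101 against 42.6, 29.7, 48.6 and 56.3 (log2 difference -1.14, standard error 0.31, adjusted p = 0.0489), and Phka1, a phosphorylase kinase subunit, fell (-1.12, adjusted p = 0.0145). None of 41 genes of fatty acid uptake and oxidation (median 0.235) or of 18 regulators around PERM1 and mitochondrial biogenesis (median 0.2) was called, the fatty acid transporter Cd36 (0.52, adjusted p = 0.144), Perm1 (0.64, adjusted p = 0.38) and Ppargc1a (0.89, adjusted p = 0.151) included. Among 40 NRF2 and antioxidant genes (median -0.00247, which changed sign under 4 of the other settings), Nqo1, a quinone reductase, fell from 39.3, 32 and 36.3 to 18.1, 12.7, 14.6 and 26.3 (log2 difference -1.0, standard error 0.19, adjusted p = 0.00703), and Gstm2 fell (-0.85, adjusted p = 0.0254), while Keap1, the inhibitor of NRF2, rose (0.46, adjusted p = 0.0305). The fourth call of that list was Nnt, described below. The AdoMet decarboxylase gene Amd1 of polyamine synthesis fell (-1.25, adjusted p = 0.0266), the only call among 15 polyamine and creatine genes (median -0.202). Of the 7 fits with 1 library left out, the call held for Nqo1 in 7, Fbp2, Gpi1 and Phka1 in 5, Pfkfb3 and Gstm2 in 2 and Keap1 and Amd1 in 1.

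Fiber-type genes gave few calls and spread widely between libraries. The shares over all genes were 1.65% called higher and 1.29% lower. Of 9 slow type I markers Myl2, the slow regulatory light chain, rose (log2 difference 1.89, standard error 0.51, adjusted p = 0.0472), from 3.44, 6.76 and 2.5 normalized counts in WT to 18.7, 11, 8.87 and 47.5 in Sesn2SkM-Tg libraries. Myl3 had 41.7, 56.9 and 35.5 against 373, 93, 177 and 118 without passing the adjusted threshold (1.88, adjusted p = 0.13), and Myh7 overlapped between the groups (1.48, adjusted p = 0.25). The median over the slow markers was 0.758, against -0.017 in basal muscle, where 0 were called higher and 1 lower. Of 10 fast markers none was called (median 0.0538). Among 15 myosins the neonatal Myh8 rose beside Myl2 (1.39, adjusted p = 0.0261; median 0.117), and Myh2 of type IIA fibers had 770.3, 1196 and 1085 against 3680, 1902, 2016 and 2326, which did not overlap (1.26, adjusted p = 0.418). Of 34 sarcomere genes (median 0.0816, below 0 with quantile normalization) the cardiac actin Actc1 fell (-1.79, adjusted p = 0.0335), as it did in basal muscle (-2.16). No gene of calcium handling (25 tested, median -0.0982) was called, Ryr1, the calcium release channel, included (-0.05, adjusted p = 0.931). Of the 7 fits with 1 library left out, the call held for Actc1 in 3, Myh8 in 2 and Myl2 in 1.

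Of 21 fiber channels and transporters 4 fell and 0 rose (median -0.196, with 1.29% of all genes called lower): the potassium channel genes Kcng4 (-1.58, adjusted p = 0.0322), Kcnq5 (-0.94, adjusted p = 0.0429) and Kcnc4 (-0.78, adjusted p = 0.0227), and Atp1b2, a subunit of the sodium pump (-0.85, adjusted p = 0.0201). Kcng4 had 13.1, 11 and 7.43 normalized counts in WT and 5.2, 2.14, 2.77 and 1.72 in Sesn2SkM-Tg libraries, and immobilization lowered it in WT muscle of set 2 by 2.98 on the log2 scale. Among 28 neuromuscular junction and denervation-responsive genes (median 0.0618), Rapsn, which clusters acetylcholine receptors, rose (0.70, adjusted p = 0.0201), where 1.65% of all genes were called higher. Kcng4, already given among the channels, fell, and the receptor subunits Chrna1 (0.75, adjusted p = 0.476) and Chrnb1 (0.12, adjusted p = 0.756) were not called. Of 27 genes of the BMP, GDF and myostatin pathway Dkk3, a secreted protein of the Dickkopf family, fell (-1.54, adjusted p = 0.0279; median -0.114), and Mstn, myostatin, was not called (0.67, adjusted p = 0.349). None of 40 chaperone genes was called (median 0.126). Of the 7 fits with 1 library left out, the call held for Atp1b2 in 4, Kcnc4, Rapsn and Dkk3 in 3 and Kcng4 and Kcnq5 in 1.

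**Figure D4:**
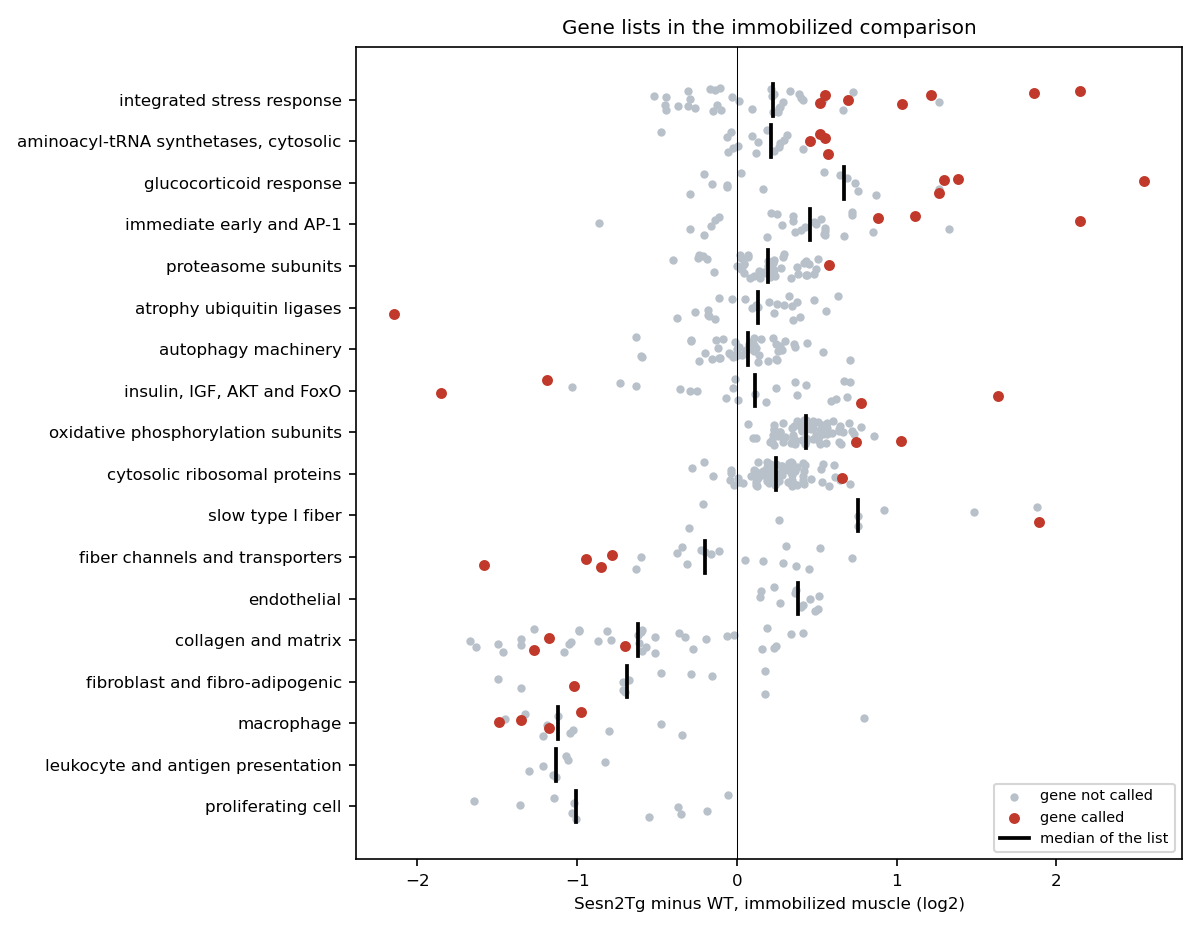
Each row plots the log2 difference between immobilized Sesn2SkM-Tg and WT muscle (horizontal axis) for every tested gene of a list, red where the gene was called and gray where it was not, with a black bar at the median of the list. Medians run from -1.13 for leukocyte markers to 0.758 for slow fiber markers, and oxidative phosphorylation subunits all lie above 0.

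The same genotypes were compared in basal muscle, in libraries that the immobilized comparison does not use. There 343 genes were called (2.5% of 13705), 206 higher (1.5%) and 137 lower (1.0%), and centring libraries on their medians made this split 150 to 150. Of the 226 genes higher after immobilization 49 were also called higher in basal muscle (21.7%, and 23.8% of the 206), and of the 177 lower genes 40 (22.6%, and 29.2% of the 137). The sign in basal muscle was the same for 201 of the 226 (88.9%, where 52.6% of all genes were above 0) and for 149 of the 177 (84.2%, where 47.4% of all genes were below 0). The median difference of the higher genes was 0.796 after immobilization and 0.382 in basal muscle, and that of the lower genes -0.944 and -0.293. Called in both states were Sesn2, Prkcz, Pla2g4e, Akt1 and Cox8b among the higher genes, and Ctxn3, Rasd2, Gatsl2, Prkag3, Pdp1 and Nqo1 among the lower ones. Per1, Cebpb and Cebpd were too. The immobilized values of the called genes were those that selected them, so their larger median there is not a result.

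**Figure D5:**
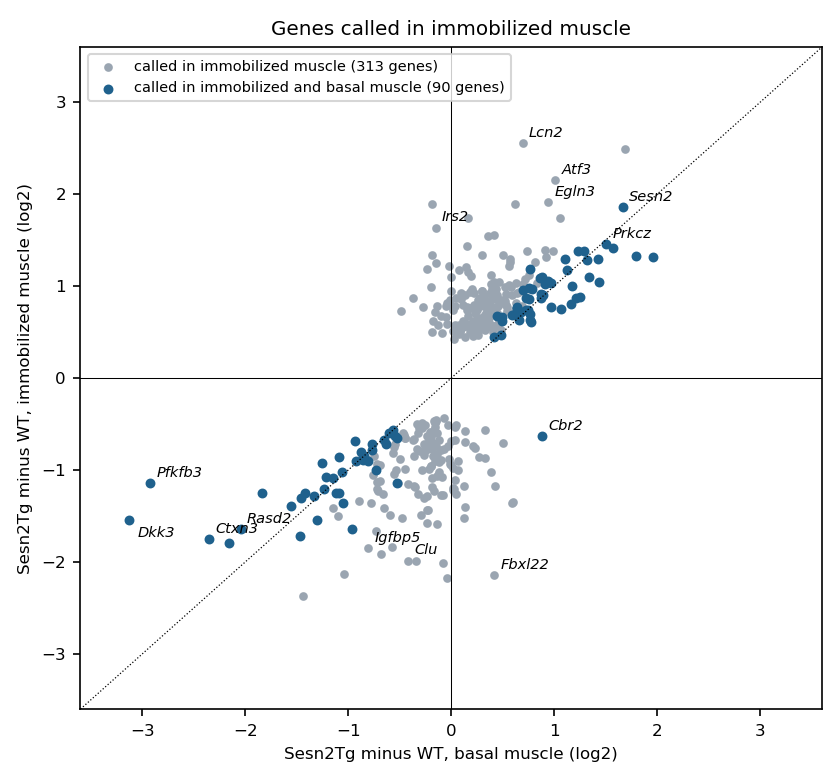
Points are the 403 genes called in immobilized muscle, with the log2 difference between Sesn2SkM-Tg and WT (written Sesn2Tg and WT) in basal muscle on the horizontal axis and in immobilized muscle on the vertical axis, blue where also called in basal muscle. Sesn2, Prkcz and Rasd2 lie near the dotted line of equal difference, and Fbxl22 and Irs2 lie near 0 or on the other side in basal muscle.

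Whether the genotype difference itself changed with immobilization was tested directly. The limma test of this difference of differences called 1 of 13705 genes (0.0073%) after Benjamini-Hochberg adjustment, with 1008 at an unadjusted p under 0.05. The gene was Cbr2, a carbonyl reductase, which had 25.5, 20.8, 14.2 and 16 normalized counts in basal WT and 31.3, 39, 37.5 and 33.7 in basal Sesn2SkM-Tg libraries, and 21.3, 18.2 and 21.6 against 12.1, 12, 12.2 and 14.7 after immobilization. It was higher than WT before immobilization and lower after it (difference of differences -1.52, standard error 0.23, adjusted p = 0.0237). The call of this difference held in 10 of 15 fits with 1 library left out and was lost without Sesn2SkM-Tg replicate 3 (adjusted p = 0.0822) or WT replicate 3 (0.101) of the immobilized groups, and without Sesn2SkM-Tg replicate 2 (0.0707), Sesn2SkM-Tg replicate 3 (0.0879) or WT replicate 3 (0.0648) of the basal groups. Its call as lower after immobilization (-0.63, adjusted p = 0.0473) held in 1 of the 7 fits. For Fbxl22 the difference of differences was -2.56 (adjusted p = 0.106), for Irs2 1.79 (adjusted p = 0.106), for C1qb -1.95 (adjusted p = 0.154) and for Lcn2 1.86 (adjusted p = 0.613), so a call in immobilized muscle alone is not shown to be a difference between the states.

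Genes were also sorted by the effect of immobilization in WT muscle of set 2, which shares no library with set 1. There 4624 of 13629 genes were called (33.9%), 2205 higher (16.2%) and 2419 lower (17.7%), a split that median centring turned to 2395 higher and 2174 lower. Of 2205 genes that immobilization raised there, 3.54% were higher and 1.32% lower in Sesn2SkM-Tg than WT muscle of set 1. Of 2415 that it lowered and that were tested in both sets, 1.41% were higher and 1.99% lower, and of 8951 that it left uncalled 1.25% and 1.11%. The median genotype difference was 0.114 for raised, 0.0117 for lowered and -0.00828 for the other genes. Atf3 (2.44 in set 2), Lcn2 (3.02), Cebpd (1.62) and Ppp1r15a (2.12) rose on immobilization there and were higher in Sesn2SkM-Tg muscle of set 1, while Fbxl22 rose with immobilization and was lower in Sesn2SkM-Tg muscle. The mean of a gene over a set was nearly equal in both sets (median difference 0.00375, SD over genes 0.0599) although immobilized WT muscle differed between them (SD 0.348), so levels are not compared across sets.

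Immobilized Sesn1SkM-Tg muscle, which is read against the same WT libraries, is set beside these values without a test. Fbxl22 had 3.49, 10.5 and 24 normalized counts in its 3 libraries, Clu 33.6, 58.4 and 98.4, Irs2 5.99, 4.86 and 3.97, Egln3 25, 25.5 and 16.7 and Gatsl2 89.7, 121 and 74.5. For Irs2 and Egln3 these lay below all Sesn2SkM-Tg libraries, and for Gatsl2 they lay above them. For Clu they reached from the Sesn2SkM-Tg range into the WT range, and for Fbxl22 from the Sesn2SkM-Tg range to just below the WT range. Sesn2 had 4.0, 3.23 and 4.63 in Sesn1SkM-Tg muscle, just above the immobilized WT libraries.

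Nnt, a mitochondrial transhydrogenase whose gene is disrupted in C57BL/6J mice and intact in other strains, had 14.6, 16.7 and 13.3 normalized counts in immobilized WT and 65.1, 39.8, 20.02 and 53.6 in immobilized Sesn2SkM-Tg libraries (log2 difference 1.41, standard error 0.31, adjusted p = 0.0181). In basal muscle it had 18.8, 20.2, 26.7 and 47.4 against 80.7, 77.5, 80.3 and 82.1. Of 5 tested genes that vary between C57BL/6 substrains, Nnt rose, Entpd4 fell (-0.84, adjusted p = 0.0101) and Wdfy1 was not called (0.18, adjusted p = 0.818; median of the 5 0.182). The shares over all genes were 1.65% called higher and 1.29% lower. The call of Nnt held in 4 and that of Entpd4 in 6 of the 7 fits with 1 library left out. The labels give C57BL/6J for all animals, and an effect of other genetic differences between the line and its controls cannot be told apart from that of the transgene. Among the autosomes and X, the share of called genes ran from 1.05% on chromosome 19 to 4.07% on chromosome 8. Genes called in the same direction in both states ran from 2 on chromosomes 12, 19 and X to 13 on chromosome 2. Chromosome 2 holds 1106 of the genes tested, and clustering of positions was not tested.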

How the data were processed

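Total RNA of TA muscle was sequenced in 42 libraries, of which the 7 compared here and the other 15 of set 1 entered 1 fit. Per the labels and the methods of the study, the authors trimmed reads with cutadapt 1.7.1, quantified transcripts with RSEM 1.2.20 against the mouse transcriptome (GRCm38) and normalized them with limma; edgeR and FastQC are also named in the submitters' processing notes. The deposited signal is a normalized count per gene and library on a linear scale. How the sets were combined and which genes had been filtered is not given in the sources used here, and reads per library are unknown, so precision rests on the spread between libraries.

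Values were taken as log2(value + 1) and fitted with limma 3.58.1 in R 4.3.3 (1 coefficient for each of 6 groups, empirical Bayes with a trend, two-sided), and p-values were adjusted by Benjamini-Hochberg over 13705 genes, those that reached 1 in any library. A call needed an absolute log2 difference of 0.25 or more beside an adjusted p under 0.05. The scripts were tested on simulated data. Groups came from the sample titles. The genes named are Sesn2, Lcn2, Atf3 and Fbxl22, the 12 genes in each direction with the largest differences among those called in all 7 fits that leave out 1 library, and, for each gene list, the called members and the first 2 members not called. A gene and a promoter window that these rules select are not reported here. Cbr2, Ddit4, Adrm1, Foxo1 and Myh2 were picked after their values were seen. The members and lists were chosen with earlier results of these data known. Gene positions are those of GENCODE M21, matched for 13620 genes (99.4%). Figures were drawn with matplotlib 3.10.9 in Python 3.11.15. Alternatives covered filters, pseudocounts, scaling, moderation, the libraries fitted, a replicate block, the fold threshold and each library left out; list counts under these settings were added after seeing the data.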

Additional observations from a re-analysis of the deposited data

Results flagged for a closer look

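Cbr2 differed between the states in its genotype difference, by the limma test of the difference of differences (-1.52 on the log2 scale, adjusted p = 0.0237). The call held in 10 of 15 fits with 1 library left out and in 8 of 11 other settings, and was lost with the replicate block (adjusted p = 0.0643), with both sets in 1 fit (0.0548) and with only the groups compared in the fit (0.0513). Sesn2SkM-Tg muscle lay above WT in basal muscle (0.88) and below it after immobilization (-0.63).

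Among the Sesn2SkM-Tg libraries after immobilization, 3 genes had 1 library far from the others, judged by its gap to the nearest library as a share of the range of the group, set against Dixon's 95% critical value for 4 libraries. Atf3 was highest in replicate 2 (0.911), Col14a1 was lowest in replicate 1 (0.856) and Pdp1 was lowest in replicate 2 (0.85). The gap of Col14a1 was small in absolute terms, from 2.94 to 3.18 normalized counts. Groups examined in this way numbered 74, and chance alone would give about 1 in 20 of them.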

How the results depend on the processing

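The counts of called genes were 403 after immobilization, 343 in basal muscle, 1 for the difference between the states and 4624 for immobilization in set 2. Fitting only the groups compared gave 233 after immobilization and 103 in basal muscle. Of the 403 calls after immobilization 175 (43.4%) were among those 233, and 24 of the 74 called genes singled out for description lost their call. Fitting both sets together gave 773, 623 and, for the difference between the states, 2. A threshold of 1 on the absolute log2 difference left 142 after immobilization, 125 in basal muscle and 686 in set 2. The estimate of variance without a trend gave 2 for the difference between the states. With 1 library left out the counts ran from 110 to 314 after immobilization, from 156 (without Sesn2SkM-Tg basal replicate 2) to 1027 (without WT basal replicate 4) in basal muscle, from 0 to 5 for the difference between the states, and from 3887 to 4578 in set 2. The replicate numbers are not stated to pair animals, and the deviations of same-numbered libraries correlated at 0.239, -0.247 and -0.376; a replicate block gave 229 calls after immobilization and 0 for the difference between the states, where Cbr2 lost its call (adjusted p = 0.0643); with both sets together the 2 genes did not include Cbr2. The causes were not tested. The difference of Sesn2 held in every setting, between 1.72 and 2.03 with 1 library left out. None of the 403 calls changed sign in any setting, but their difference in the same libraries selected them, so this does not test them. Of the 403 calls, 25.1% held without WT replicate 1 and 26.6% without WT replicate 3. Median differences of the insulin, p53, neuromuscular, myosin, BMP, substrain, NRF2, acute phase, neutrophil, tendon, fast fiber, sarcomere and adipocyte lists changed sign in at least 1 setting, a check added after seeing the data. The number of reads is unknown, so a limit from depth cannot be given.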
